A study of Malus domestica with 18 samples.

Results

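Brassinosteroid and sterol genes of apple were followed in shoot explants with and without a cytokinin. The set holds the 126 genes, of 42841 in the count table, whose Swiss-Prot protein name speaks of brassinosteroids, brassinazole, BES1/BZR1, BRI1, sterols or steroids, or names a cytochrome P450 of the brassinosteroid families CYP85A, CYP90A to CYP90D, CYP724 or CYP734A. Explants of Malus domestica, cultivar Húsvéti rozmaring, cut to 20 mm from in vitro shoots that had last grown without cytokinin, stood on control medium, on medium with 4.5 µM thidiazuron (TDZ, a synthetic phenylurea cytokinin) or on medium with 4.5 µM 6-benzylaminopurine riboside (BAR, the riboside of an adenine-type cytokinin). All 3 media, the control included, held 0.49 µM of the auxin indole butyric acid and 0.58 µM of gibberellic acid. Poly(A) RNA of axillary shoots was sequenced after 48 hours and after 4 weeks, in 6 groups of 3 libraries that the labels call biological replicates without saying whether they came from separate vessels. In 4 groups (control and BAR at 48 hours, BAR and TDZ at 4 weeks) the library of replicate 3 carries the name of replicate 1 with a final b. The labels do not explain this, so whether these 4 are separate samples is not known. In that order, the Spearman correlation of replicate 1 with its b library over all genes tested was 0.969, 0.947, 0.988 and 0.807. With replicate 2 it was 0.975, 0.963, 0.975 and 0.974.

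Brassinosteroids are steroid hormones that promote cell elongation, vascular differentiation and shoot growth. They are made from campesterol, a membrane sterol, by a chain of cytochrome P450 enzymes and the 5-alpha-reductase DET2, and are inactivated by other P450s and by conjugation. The hormone binds the receptor kinase BRI1 or some, not all, of its relatives at the cell surface. The inhibitor BKI1 then leaves the receptor, the co-receptor BAK1 joins it, and a kinase cascade ends in the activation of transcription factors of the BZR family. In Arabidopsis these factors repress several genes of brassinosteroid synthesis, so that the hormone limits its own supply.

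Gene names are best matches to Swiss-Prot, 106 of the 126 to Arabidopsis proteins, and reads of close copies may be shared between them. Libraries held 12546489 to 21279097 counts. Of the 126 genes, 105 had enough counts to be tested; 5 of the other 21 had no count and the rest had at most 112 over 18 libraries. A gene is called higher or lower when its adjusted p, from edgeR's quasi-likelihood test with Benjamini-Hochberg adjustment over 26053 genes, is under 0.05. Levels are given as CPM, the reads of a gene scaled to the depth of its library, with mean ± SD over 3 libraries where not listed singly. A difference between groups is on the log2 scale, with the standard error (SE) of the fit. The library labelled TDZ, 4 weeks, replicate 3 stood apart from its group. Over the 105 members its Spearman correlation was 0.93 to 0.938 with the 3 controls of 4 weeks and 0.748 and 0.74 with TDZ replicates 1 and 2, which correlated at 0.971 with each other. Its summed level of 12 type-A response regulators, genes that cytokinin induces, was 15.7 CPM against 12.4 to 26.8 in the controls and 403 and 476 in the other TDZ libraries of 4 weeks. Called TDZ results of that time are therefore given with and without this library, except for interactions of single members and part of the tissue markers. TDZ differences of single members that were not called, and have no value without it below, were not called without it either. Control replicate 1 of 4 weeks also stood apart, with a Spearman correlation over all genes of 0.927 and 0.931 with control replicates 2 and 3, which correlated at 0.987. Chlorophyll a-b binding proteins, markers of green leaf, summed to 2710 CPM or more in every library, and 8 Casparian strip proteins of the root endodermis to 2.38 CPM or less.

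At 4 weeks brassinosteroid and sterol genes were called on both cytokinins, in both directions. On BAR 23 of the 105 tested members were higher than in the control and 24 were lower, or 44.8%, beside 29.9% of all genes tested (17.2% higher and 12.7% lower). On TDZ 20 were higher and 12 lower, or 30.5%, beside 26.6% of all genes (16.8% higher and 9.72% lower). Without TDZ replicate 3 the counts were 31 higher and 20 lower of 106 tested members, or 48.1%, beside 40.9% of all genes (23.0% and 17.9%). The median log2 fold change of the members was 0.15 on TDZ and -0.01 on BAR, beside 0.14 over all genes in both comparisons. The comparisons share their control libraries, and in bulk RNA fewer cells of a type cannot be told apart from less RNA per cell. Leaving out control replicate 2 or BAR replicate 3 brought the count for BAR from 47 to 30 and 31. For TDZ the count of 32 became 18 and 16 without control replicates 2 and 3, 15 and 17 without TDZ replicates 1 and 2, and 51 without TDZ replicate 3. Of the fits that left out 1 library, the share of all genes called was computed only for that without TDZ replicate 3. Whether the counts of members moved more than those of all genes is therefore not known.

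**Figure D1:**
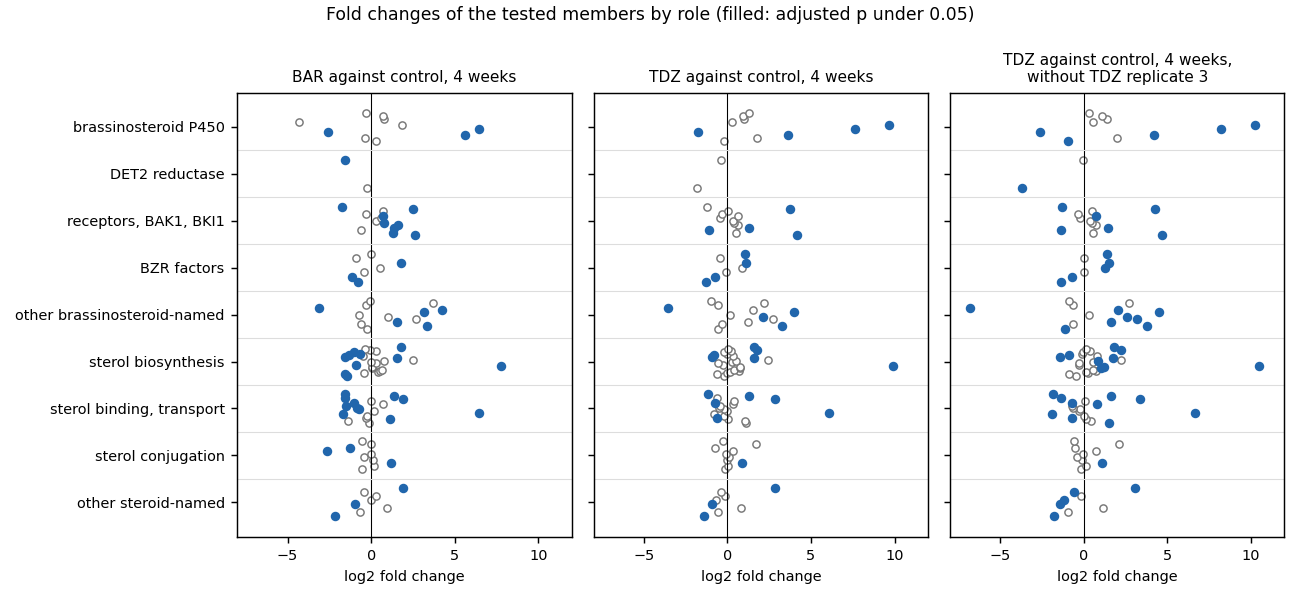
Log2 fold change of each tested member against control at 4 weeks, by role, for BAR (left), TDZ (middle) and TDZ without replicate 3 (right); each point is 1 gene and filled points have an adjusted p under 0.05. Members of most roles lie on both sides of 0, with 23 higher and 24 lower calls on BAR and 20 and 12 on TDZ.

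**Figure D2:**
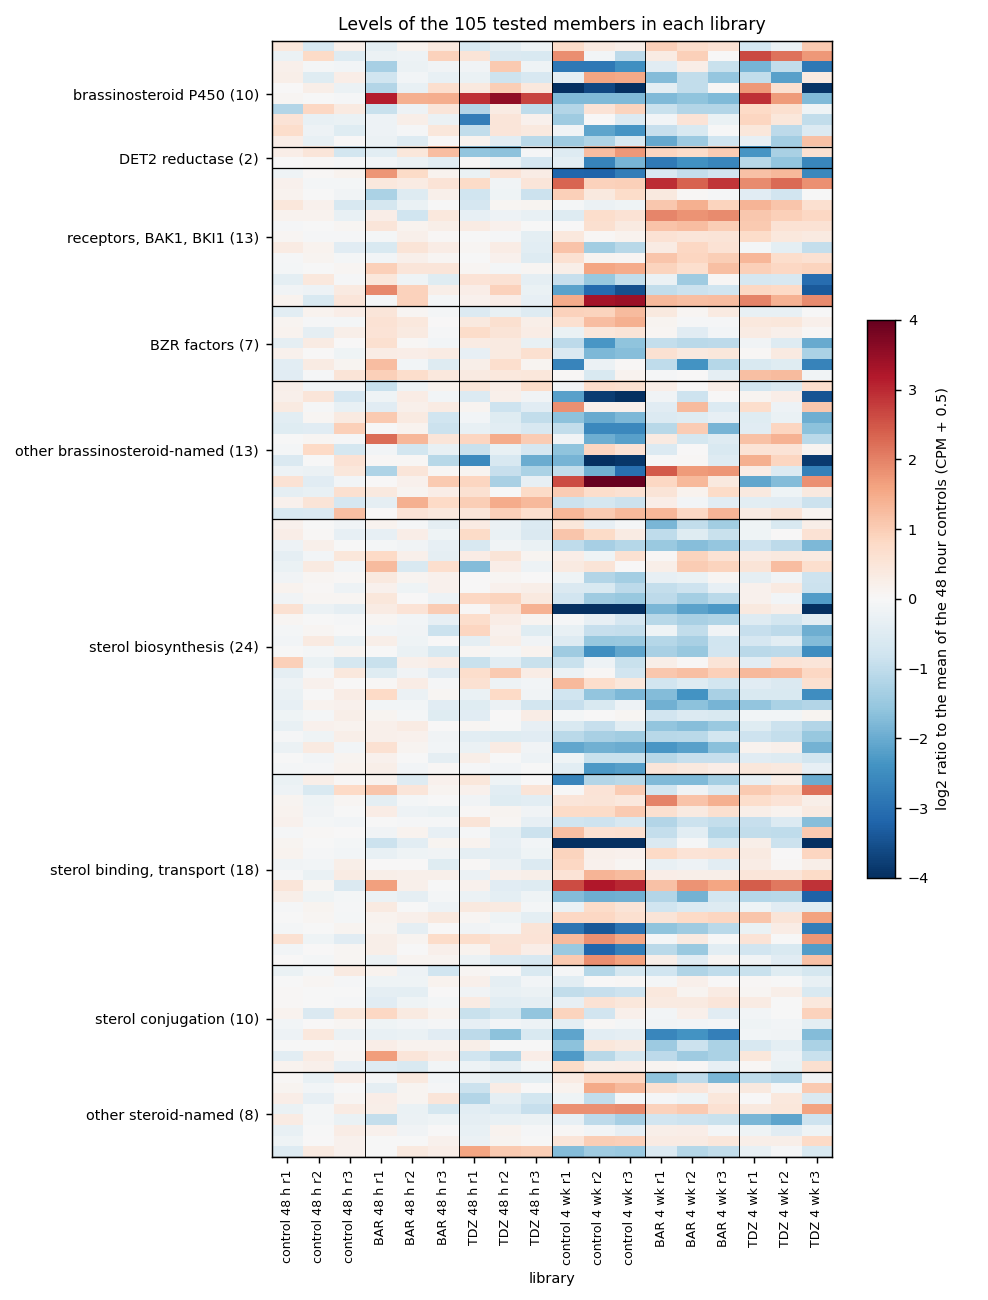
Level of the 105 tested members in each of the 18 libraries, as the log2 ratio of CPM + 0.5 to the mean of the 48 hour controls (colour, limited to 4 either way), in rows grouped by role. The column of TDZ, 4 weeks, replicate 3 looks like the 3 control columns of 4 weeks, with which it correlated at 0.93 to 0.938.

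Among the enzymes of brassinosteroid synthesis, a copy of CYP90B1 and the tested CYP724B1 gene had at most 3 counts in all 3 controls of 4 weeks together. CYP90B1, known as DWARF4, adds the C-22 hydroxyl group that commits campesterol and its derivatives to the hormone. Its copy DVH24_026474 stood at 0, 0.182 and 0 CPM in the controls of 4 weeks, a total of 3 counts, against 6.0, 3.83 and 8.38 CPM on BAR and 28.1, 12.8 and 0.0644 CPM on TDZ. The BAR libraries all lay above the controls, and so did TDZ replicates 1 and 2, while TDZ replicate 3 lay among the controls. By summed counts the level was 96.4 times that of the control on BAR (95% interval for counting error 32.7 to 470.0, adjusted p = 0.0045) and 239 times on TDZ (81.4 to 1160.0, adjusted p = 0.0032; 1.4e-06 without TDZ replicate 3). At 48 hours the same gene had been at 8.09 ± 1.37 CPM in the controls, beside 6.07 ± 2.28 on BAR and 13.7 ± 14.1 on TDZ at 4 weeks. The fall in the controls over time was called as well (128 times, interval 43.5 to 624.0, adjusted p = 0.0024), and these 3 calls held with each of the 18 libraries left out.

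Another CYP90B1 copy, DVH24_029875, was not called on either cytokinin. It stood at 15.2, 3.45 and 2.86 CPM in the 4 week controls, 8.63, 10.8 and 16.5 on BAR and 22.9, 7.86 and 11.3 on TDZ. The groups overlapped, with a log2 difference of 0.73 on BAR (SE 0.60, 95% interval -0.53 to 2.0) and 0.96 on TDZ (SE 0.60, interval -0.3 to 2.23). Per length the copies stood at 11.9 and 5.38 FPKM in the 48 hour controls (DVH24_029875 first) and 4.75 and 0.041 in the 4 week controls. On BAR at 4 weeks they stood at 7.64 and 3.87 FPKM, and on TDZ at 9.37 and 9.19. TDZ replicates 1, 2 and 3 of 4 weeks read 15.5, 5.28 and 7.36 FPKM for DVH24_029875. For DVH24_026474 they read 18.9, 8.6 and 0.0418 FPKM.

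CYP724B1, which in rice (as DWARF11) acts in the same region of the pathway, was present on TDZ and near 0 on BAR at 4 weeks. DVH24_028002 had 0 counts in the controls of 4 weeks and 0, 0.0555 and 0 CPM on BAR, but 12.5 and 5.04 CPM in TDZ replicates 1 and 2 and 0 in replicate 3. The TDZ mean was at least 92.6-fold higher than the control, set against 3 counts over the control group (adjusted p = 0.0043; 6.9e-06 without TDZ replicate 3), a call that held with each library left out. It was also higher on TDZ than on BAR (adjusted p = 0.013), where the BAR group held 1 count and the ratio of summed counts was 347 with a counting interval of 62.0 to 13800.0; this call was lost without BAR replicate 1 or 3 (adjusted p 0.071 to 0.084) and had an adjusted p of 4.2e-05 without TDZ replicate 3. A homeobox gene of the shoot meristem, SHOOT MERISTEMLESS (DVH24_016931), held 3 counts on BAR and stood at 381 times that level on TDZ (interval 130 to 1850.0). The summed level of 20 homeobox genes named SHOOT MERISTEMLESS or knotted-1-like went the other way. It was 845 to 924 CPM on BAR and 436 to 758 on TDZ. The part of meristem tissue in the CYP724B1 result was not tested.

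CYP90A1, known as CPD, which oxidises the C-3 position, went the other way. DVH24_022954, the most abundant brassinosteroid P450 per length at a mean of 113 FPKM, stood at 134, 518 and 491 CPM in the 4 week controls. On BAR it read 50.7, 87.1 and 57.8 CPM, below every control (log2 -2.55, SE 0.56, adjusted p = 0.0041), and this call held with each library left out. On TDZ it read 86.5, 38.1 and 218 CPM (log2 -1.74, SE 0.54, adjusted p = 0.027; -2.61 and 0.00081 without replicate 3). The call on TDZ was lost without control replicate 2 or 3 or TDZ replicate 1 or 2 (adjusted p 0.093 to 0.11). Control replicate 1, at 134 CPM, was far below the other controls. The gene for CYP85A, which makes castasterone by C-6 oxidation, DVH24_032047, was at 6.81 ± 2.21 CPM in the controls, 5.44 ± 2.57 on BAR and 11.4, 5.38 and 33.0 on TDZ. Replicate 3 was the highest TDZ library, and the mean of the other 2 was 8.37 CPM. The gene was not called on BAR (adjusted p = 0.68) or on TDZ (log2 1.28, adjusted p = 0.087; 0.3 and 0.62 without replicate 3).

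DET2, the 5-alpha-reductase of the pathway, was represented by a pair of tested genes. DVH24_026611 was at 7.97, 1.21 and 2.54 CPM in the 4 week controls and at 1.05, 1.55 and 1.29 on BAR, so that the groups overlapped although the gene was called lower (log2 -1.59, SE 0.56, adjusted p = 0.043). The call was lost in 12 of the 18 fits that left out a library (adjusted p 0.051 to 0.43). DVH24_006299 was at 1.8, 7.21 and 10.4 CPM in the controls and at 0.136, 0.84 and 4.57 on TDZ. It was not called with all libraries (log2 -1.82, SE 0.94, adjusted p = 0.16) but was called lower without TDZ replicate 3 (-3.69, SE 0.97, adjusted p = 0.0062).

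Inactivating enzymes also differed between copies. CYP734A1, known as BAS1 in Arabidopsis, inactivates brassinosteroids by C-26 hydroxylation. Its copy DVH24_017833 was at 0, 0 and 0.159 CPM in the 4 week controls and at 2.16, 3.89 and 1.45 on BAR, all above the controls. By summed counts BAR was at 59.1 times the control, which held 2 counts (interval 16.0 to 493.0, adjusted p = 0.0047). On TDZ it read 0.498, 1.34 and 0 CPM, called higher with an adjusted p of 0.043, which became 0.051 to 0.24 in 13 of the 18 fits that left out a library and 0.0039 without TDZ replicate 3. The copy with most reads per length, DVH24_012871 at a mean of 7.2 FPKM, was at 13.0 ± 2.52 CPM in the controls, 16.2 ± 2.11 on BAR and 11.2 ± 7.65 on TDZ. It was not called with all libraries and was called lower on TDZ without replicate 3 (log2 -0.94, SE 0.35, adjusted p = 0.04). The other tested copies, DVH24_029209 and DVH24_012873, were not called, with log2 values of 0.77 and -0.37 on BAR and 1.0 and 1.75 on TDZ.

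Brassinosteroid-related acyltransferase 1, BAT1, which in Arabidopsis lowers the amount of active hormone when overproduced, was higher on both cytokinins. DVH24_020422 was at 3.22, 0.121 and 0.397 CPM in the controls, 12.8, 13.4 and 8.97 on BAR and 35.6, 23.7 and 0.451 on TDZ. All BAR libraries and TDZ replicates 1 and 2 lay above the controls, and TDZ replicate 3 among them. The log2 difference was 3.19 on BAR (SE 1.11, adjusted p = 0.041) and 3.96 on TDZ (SE 1.14, adjusted p = 0.02; 4.51 and 0.00041 without replicate 3). The call on BAR was lost in 7 of the 18 fits that left out a library (adjusted p 0.051 to 0.13), and that on TDZ without control replicate 2 or 3 or TDZ replicate 1 or 2 (0.05 to 0.079).

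**Figure D3:**
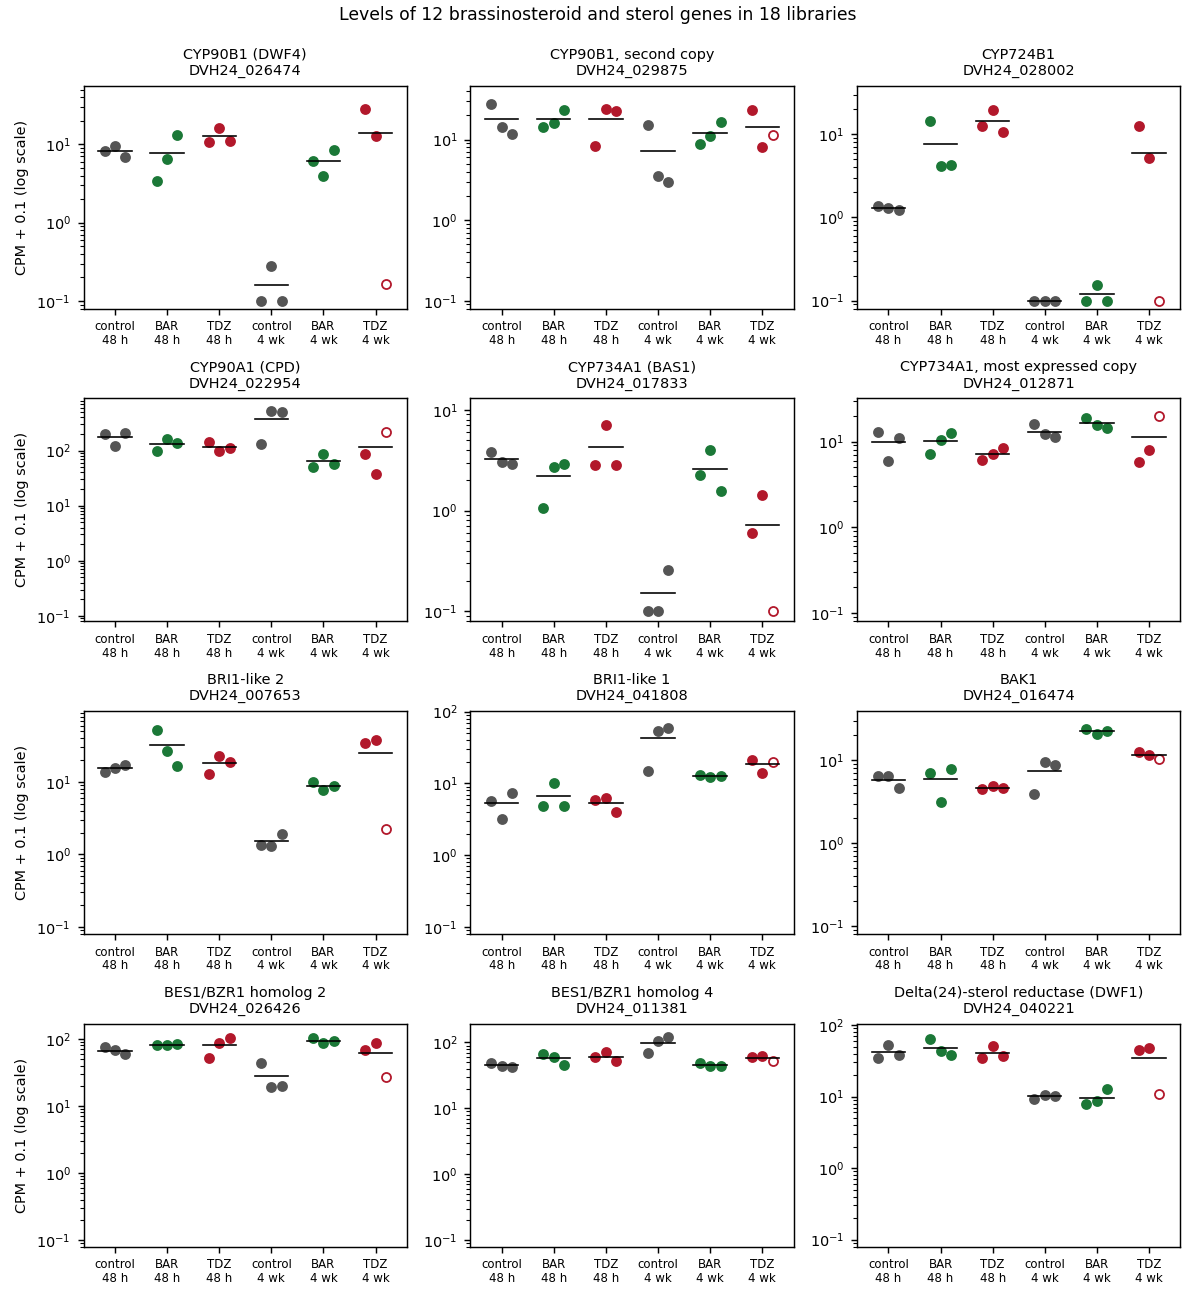
CPM + 0.1 on a log scale of 12 members in each library (points; bars mark the mean of 3), by group, with the library labelled TDZ, 4 weeks, replicate 3 as an open point. CYP90B1 copy DVH24_026474 read 0 to 0.182 CPM in the 4 week controls and 3.83 to 8.38 on BAR, while CYP90A1 read 134 to 518 and 50.7 to 87.1.

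Receptor genes of the BRI1 family were not all called in the same direction. BRI1-like 2, known as VASCULAR HIGHWAY 1 and described in Arabidopsis from provascular cells, had a pair of genes that rose together. DVH24_007653 was at 1.26, 1.21 and 1.83 CPM in the 4 week controls, 9.85, 7.61 and 8.76 on BAR and 34.8, 38.4 and 2.13 on TDZ, and even the lowest TDZ library lay above the controls. The log2 difference was 2.61 on BAR (SE 0.71, adjusted p = 0.013) and 4.14 on TDZ (SE 0.74, adjusted p = 0.0027; 4.69 and 3.9e-07 without replicate 3). Its partner DVH24_040263 was called in the same direction, at 2.49 on BAR (SE 0.90, adjusted p = 0.047) and 3.74 on TDZ (SE 0.93, adjusted p = 0.0095; 4.28 and 2.7e-05 without replicate 3). The calls on TDZ held with each library left out. On BAR the first was lost without control replicate 2 (adjusted p = 0.051) and the second in 15 of 18 fits (0.05 to 0.15).

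BRI1-like 1, a receptor that binds brassinosteroid in Arabidopsis, had a copy that went against that pair on BAR. DVH24_041808 was at 14.9, 54.3 and 58.7 CPM in the 4 week controls, 13.0, 12.2 and 12.4 on BAR and 21.1, 13.8 and 20.0 on TDZ. It was lower on BAR than in every control (log2 -1.77, SE 0.45, adjusted p = 0.0092, held with each library left out) and narrowly missed the threshold on TDZ (-1.22, SE 0.44, adjusted p = 0.051; -1.29 and 0.048 without replicate 3). Its relative DVH24_038293 stood at 29.0 ± 12.7 CPM in the controls, 23.7 ± 4.49 on BAR and 23.0 ± 1.25 on TDZ and was not called. In the controls over time both were higher at 4 weeks, by a log2 of 3.01 (SE 0.47, adjusted p = 0.00063) and 1.24 (SE 0.29, adjusted p = 0.0041), while the BRI1-like 2 pair was lower, by -3.43 and -3.46 (SE 0.72 and 0.92, adjusted p = 0.0024 and 0.0091).

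The gene best matched to Arabidopsis BRI1, DVH24_008306, was low, at 6.38, 2.12 and 2.15 CPM in the 4 week controls and 10.1, 6.55 and 9.4 on BAR. Its call on BAR (log2 1.29, SE 0.46, adjusted p = 0.044) was lost in 13 of the 18 fits that left out a library (0.05 to 0.16). DVH24_039446, best matched to a tomato protein named brassinosteroid LRR receptor kinase, had more reads per length. Its mean was 22.1 FPKM beside 0.823 FPKM for DVH24_008306. Which of them acts as BRI1 in apple was not tested. DVH24_039446 was not called on either cytokinin, with log2 values of 0.71 on BAR (SE 0.51, interval -0.37 to 1.79) and 0.02 on TDZ (SE 0.51, interval -1.06 to 1.09).

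The co-receptor BAK1 was higher on BAR in 4 of its 5 gene models. DVH24_016474 was at 3.82, 9.46 and 8.66 CPM in the controls and 23.6, 20.8 and 22.6 on BAR, without overlap (log2 1.61, SE 0.36, adjusted p = 0.0044). DVH24_016473 rose by 1.35 (SE 0.32, adjusted p = 0.0064), DVH24_016476 by 0.79 (SE 0.21, adjusted p = 0.011) and DVH24_033316 by 0.70 (SE 0.23, adjusted p = 0.03). The fifth, DVH24_016480, was at 55.3 ± 7.21 CPM in the controls and 68.9 ± 2.37 on BAR and was not called (0.32, interval -0.04 to 0.67). On TDZ DVH24_016473 alone of the 5 was called with all libraries, from 9.74 ± 0.609 to 23.6 ± 5.76 CPM (log2 1.28, SE 0.32, adjusted p = 0.0099; 1.45 and 0.0021 without replicate 3), and DVH24_033316 too without replicate 3 (0.75, adjusted p = 0.019). DVH24_016473 and DVH24_016474 lie 8 bases apart on the same strand and may be pieces of 1 gene. The call of DVH24_033316 on BAR was lost without control replicate 2 or 3 or BAR replicate 1 or 3 (adjusted p 0.068 to 0.11), and that of DVH24_016473 on TDZ without TDZ replicate 1 (0.051).

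BKI1, the inhibitor that keeps BRI1 inactive, was lower on TDZ in 1 of its 2 copies. DVH24_012441 was at 72.4, 49.0 and 61.6 CPM in the controls, 26.6, 21.6 and 36.5 on TDZ and 48.1, 38.5 and 35.4 on BAR. All TDZ libraries, replicate 3 included, lay below the controls (log2 -1.11, SE 0.32, adjusted p = 0.019; -1.34 and 0.0057 without replicate 3). The call was lost without control replicate 3 or TDZ replicate 1 or 2 (0.052 to 0.09), and BAR was not called (-0.58, interval -1.25 to 0.09). The other copy, DVH24_020744, was at 68.2, 11.5 and 13.9 CPM in the controls and was called on neither cytokinin.

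BZR factors, the transcription factors at the end of the cascade, were called in opposite directions by subfamily. BES1/BZR1 homolog 2, copy DVH24_026426, the BZR gene with the highest mean over 18 libraries at 70.3 FPKM though not in the 4 week controls (28.7 FPKM beside 96.3 for DVH24_011381), was at 44.0, 18.8 and 20.0 CPM in the 4 week controls. It rose to 102, 86.5 and 91.7 CPM on BAR (log2 1.76, SE 0.38, adjusted p = 0.004), above every control and above the 66.8 ± 7.45 of the 48 hour controls. On TDZ it read 68.7, 86.0 and 27.1 CPM (log2 1.13, SE 0.38, adjusted p = 0.037; 1.48 and 0.0014 without replicate 3), a call lost without control replicate 2 or 3 or TDZ replicate 1 or 2 (0.11 to 0.19). Copy DVH24_029908 was called higher on TDZ alone (1.04, SE 0.36, adjusted p = 0.046; 1.37 and 0.0023 without replicate 3), and that call was lost in 15 of 18 fits that left out a library (0.051 to 0.19).

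BES1/BZR1 homolog 4 had 2 of its 4 tested copies lower on both cytokinins. DVH24_011381 was at 69.6, 106 and 122 CPM in the controls, 48.7, 43.6 and 43.8 on BAR and 60.6, 61.8 and 52.0 on TDZ, so that no cytokinin library reached a control. The log2 difference was -1.13 on BAR (SE 0.21, adjusted p = 0.0019) and -0.77 on TDZ (SE 0.21, adjusted p = 0.015; -0.7 and 0.026 without replicate 3). DVH24_002994 fell from 33.8 ± 5.05 CPM to 19.8 ± 2.18 on BAR (-0.77, SE 0.23, adjusted p = 0.018) and to 13.0, 13.1 and 16.1 on TDZ (-1.27, SE 0.23, adjusted p = 0.0027; -1.38 and 0.00044 without replicate 3). In these 2 genes TDZ replicate 3, at 52.0 and 16.1 CPM, lay with the other TDZ libraries and below all controls. The calls of DVH24_011381 on BAR and of DVH24_002994 on TDZ held with each library left out. DVH24_011381 on TDZ was lost without control replicate 2 or 3 (0.055 to 0.084), and DVH24_002994 on BAR without control replicate 3 or BAR replicate 2 (0.073 to 0.086). The copies DVH24_017383 and DVH24_026936 were not called, and neither was BRASSINAZOLE-RESISTANT 1, DVH24_020255, at 13.1 ± 5.71 CPM in the controls, 19.2 ± 0.86 on BAR and 24.3 ± 13.4 on TDZ, although it was called higher on TDZ without replicate 3 (1.27, SE 0.33, adjusted p = 0.0059).

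Genes named brassinosteroid-responsive RING protein 1, after an Arabidopsis RING finger gene (BRH1) whose transcript falls when the hormone is given, differed widely among their copies. DVH24_033687 was at 20.8, 63.0 and 65.6 CPM in the 4 week controls, 5.59, 7.94 and 4.03 on BAR and 0.317, 0.546 and 11.9 on TDZ, below every control in all cytokinin libraries. It fell by 3.09 on the log2 scale on BAR (SE 1.0, adjusted p = 0.029) and by 3.57 on TDZ (SE 1.02, adjusted p = 0.019; -6.82 and 1.3e-05 without replicate 3). DVH24_008098 went the other way, from 2.89, 0.606 and 0 CPM to 12.2 ± 3.56 on BAR (3.33, SE 0.95, adjusted p = 0.016) and 16.0, 17.9 and 0.902 on TDZ (3.26, SE 0.95, adjusted p = 0.02; 3.78 and 0.00052 without replicate 3). DVH24_022347 was called higher on BAR, from 1.08 ± 1.02 to 20.9 ± 6.77 CPM (4.23, SE 0.91, adjusted p = 0.0038; on TDZ 1.52 and 0.19, and 2.03 and 0.029 without replicate 3), and DVH24_018304 on TDZ, from 2.85 ± 2.78 to 12.5 ± 8.41 CPM (2.12, SE 0.68, adjusted p = 0.032; 2.57 and 0.0024 without replicate 3). Another copy, DVH24_008366, was called on neither (-0.62, SE 0.55 and -0.35, SE 0.55). The calls of DVH24_033687, DVH24_008098 and DVH24_018304 on TDZ were each lost without control replicate 2 or 3 or TDZ replicate 1 or 2 (adjusted p 0.053 to 0.067, 0.055 to 0.082 and 0.099 to 0.12). On BAR that of DVH24_033687 was lost in 5 fits (0.062 to 0.099) and that of DVH24_008098 without control replicate 2 (0.068), while that of DVH24_022347 held in all 18. The 4 tested genes named BRASSINAZOLE INSENSITIVE PALE GREEN, a chloroplast GTP-binding protein, were not called on either cytokinin with all libraries; DVH24_004920 was called lower on TDZ without replicate 3.

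Sterol biosynthesis supplies campesterol and the membrane sterols. Of 24 tested enzymes 3 were higher and 7 lower on BAR, or 12.5% and 29.2% beside 17.2% and 12.7% of all genes, with a median log2 change of 0.03 beside 0.14. On TDZ 4 were higher and 2 lower, or 16.7% and 8.33%, near the 16.8% and 9.72% of all genes, with a median of 0.22 beside 0.14. Without TDZ replicate 3 they were 7 and 2, or 29.2% and 8.33%, beside 23.0% and 17.9%. The 7 lower on BAR included all 3 gene models of 7-dehydrocholesterol reductase, known as DWARF5. DVH24_000607 was at 38.5, 22.1 and 26.1 CPM in the 4 week controls and 7.4, 13.8 and 10.4 on BAR, below every control (log2 -1.45, SE 0.31, adjusted p = 0.0035). On TDZ it stayed at 24.5, 18.2 and 33.0 CPM, within the range of the controls except for 1 lower library (-0.2, SE 0.30, interval -0.84 to 0.44). DVH24_000608, 388 bases away on the same strand, and DVH24_027630, named here after their values were seen, fell on BAR by 1.58 and 1.57 (SE 0.34 and 0.33, adjusted p = 0.004 and 0.0033). DVH24_027630 was also lower on TDZ, at -0.9 with all libraries (adjusted p = 0.049, lost in 16 of the 18 fits that left out a library, 0.054 to 0.2) and -1.41 without replicate 3 (adjusted p = 0.00097). Delta(14)-sterol reductase DVH24_019108, the FACKEL step, was at 28.6, 23.3 and 18.4 CPM in the controls and 13.5, 11.6 and 12.6 on BAR (-0.9, SE 0.21, adjusted p = 0.0055). The C-5 desaturase DWARF7, DVH24_035270, went from 12.6 ± 2.21 to 6.32 ± 0.551 CPM (-1.0, SE 0.24, adjusted p = 0.0066), and methylsterol monooxygenase 2-2, DVH24_032957, a C-4 demethylation enzyme, from 19.0 ± 4.96 to 7.56 ± 0.825 (-1.33, SE 0.24, adjusted p = 0.0015). These BAR calls of DVH24_000607, DVH24_019108, DVH24_035270 and DVH24_032957 held with each library left out.

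**Figure D4:**
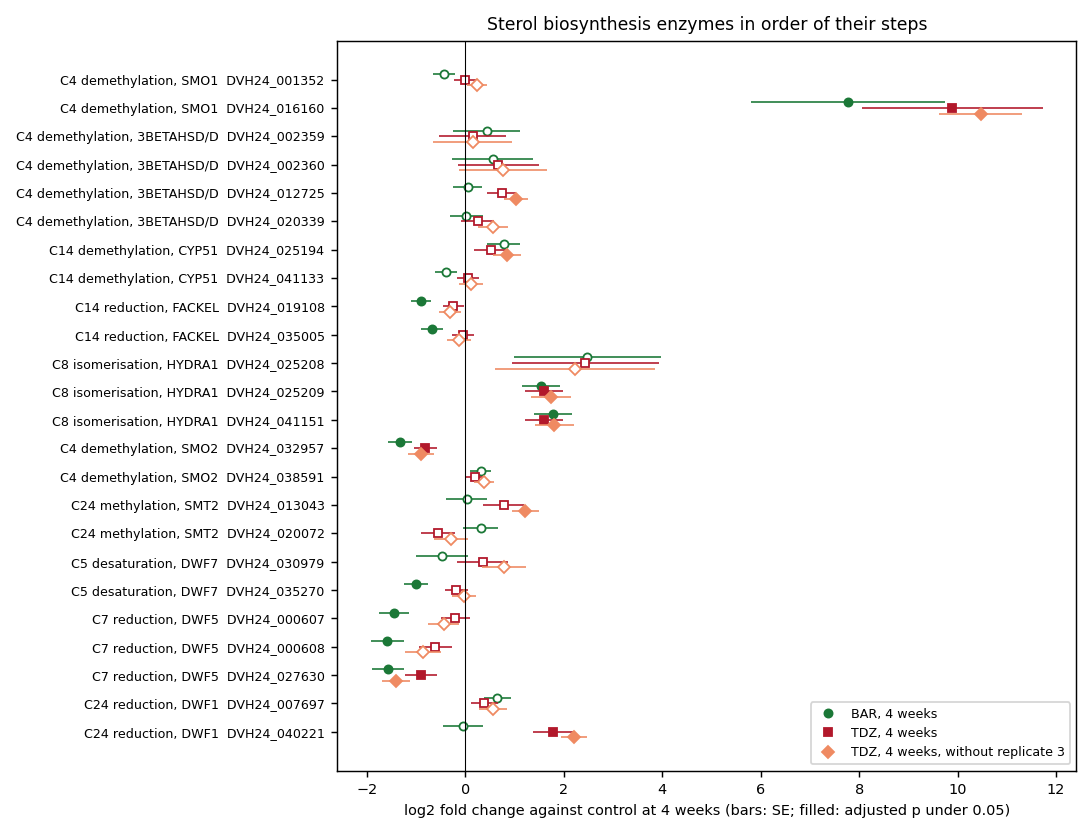
Log2 fold change against control at 4 weeks, with SE, of the 24 tested sterol biosynthesis enzymes in the order of their steps, on BAR (circles), TDZ (squares) and TDZ without replicate 3 (diamonds); filled points have an adjusted p under 0.05. The 3 gene models of DWARF5 lie at -1.45 to -1.58 on BAR, and the DWARF1 copy DVH24_040221 at 1.79 on TDZ and -0.05 on BAR; the points of DVH24_016160 are fitted against controls with 0 counts and are no bound.

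DWARF1, the Delta(24)-sterol reductase that gives campesterol, had 1 copy that followed TDZ. DVH24_040221 was at 9.95 ± 0.638 CPM in the 4 week controls, 7.69, 8.66 and 12.5 on BAR and 45.2, 47.0 and 10.8 on TDZ. TDZ replicates 1 and 2 stood at the 34.7 to 52.2 CPM of the 48 hour controls, while TDZ replicate 3 lay near the 4 week controls. The log2 difference on TDZ was 1.79 (SE 0.41, adjusted p = 0.0064; 2.21 and 9.4e-06 without replicate 3), a call that held with each library left out, and on BAR -0.05 (SE 0.40, interval -0.9 to 0.8). The more abundant copy per length, DVH24_007697 at 81.2 FPKM beside 12.7 FPKM, was at 208, 104 and 92.3 CPM in the controls, 187, 198 and 248 on BAR and 183, 215 and 134 on TDZ and was not called (0.65, interval 0.07 to 1.22, adjusted p = 0.083 on BAR; 0.39, interval -0.18 to 0.97, adjusted p = 0.3 on TDZ).

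The enzyme with the most reads per length was sterol C-24 methyltransferase 2, which steers carbon to sitosterol and away from campesterol. DVH24_013043, at a mean of 298 FPKM, was at 216, 136 and 129 CPM in the 4 week controls, 176, 142 and 174 on BAR and 411, 337 and 77.5 on TDZ. It was not called with all libraries and was higher on TDZ without replicate 3 (log2 1.22, SE 0.27, adjusted p = 0.0017). Methylsterol monooxygenase 1-2, DVH24_016160, had 0 counts in the 3 controls of 4 weeks, 1.98, 1.5 and 1.29 CPM on BAR and 11.0, 9.7 and 0 on TDZ. Set against 3 counts over the control group, it was at least 25.1-fold higher on BAR (adjusted p = 0.011) and at least 109-fold higher on TDZ (adjusted p = 0.0034; 4.7e-07 without replicate 3), and both calls held with each library left out. Of 3 tested genes for the Delta(8),Delta(7) isomerase HYDRA1, DVH24_041151 and DVH24_025209, named after their values were seen, rose by 1.78 and 1.54 on BAR (SE 0.39 and 0.38, adjusted p = 0.0042 and 0.0079) and by 1.6 each on TDZ (SE 0.39 and 0.38, adjusted p = 0.0084 and 0.0077), or 1.81 and 1.74 without replicate 3 (adjusted p = 0.0016 and 0.0029).

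Upstream of these enzymes, genes of the mevalonate pathway to squalene oxide, which also supply other terpenoids, were called higher and never lower in the cytokinin comparisons of 4 weeks. Of 27 tested, 14 were higher on BAR, or 51.9% beside 17.2% of all genes, and 13 on TDZ, or 48.1% beside 16.8%, with medians of 1.41 and 1.36 beside 0.14. Without TDZ replicate 3 it was 19 of 29, or 65.5% beside 23.0%. Genes of this and the next paragraph were named after their values were seen. Farnesyl pyrophosphate synthase 1 DVH24_014345 was at 23.2 ± 22.2 CPM in the controls, 310 ± 122 on BAR (3.73, SE 0.6, adjusted p = 0.00085) and 151 ± 79.4 on TDZ (2.7, SE 0.58, adjusted p = 0.0047; 3.08 and 0.00024 without replicate 3). Of 9 tested genes for cycloartenol and the steps just after it, 4 were higher and 0 lower on each cytokinin, or 44.4% (6 higher, or 66.7%, on TDZ without replicate 3), among them cycloartenol synthase 2 DVH24_018731, from 7.05 ± 4.01 to 67.5 ± 17.3 CPM on BAR (3.25, SE 0.58, adjusted p = 0.0014) and to 62.6 ± 45.9 on TDZ (3.14, SE 0.58, adjusted p = 0.0029; 3.64 and 9e-07 without replicate 3).

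Of 46 tested partners of brassinosteroid signalling outside the set (BSK kinases, BSL phosphatases, shaggy-related kinases and the BIM, BEE, PRE and IBH1 factors), 11 were higher and 3 lower on BAR, or 23.9% and 6.52% beside 17.2% and 12.7% of all genes. On TDZ 7 were higher and 2 lower, or 15.2% and 4.35% beside 16.8% and 9.72%, and 13 and 5 of 48 without replicate 3, or 27.1% and 10.4% beside 23.0% and 17.9%. The growth-promoting factor PRE1, DVH24_031891, was at 0.428 ± 0.503 CPM in the controls, 8.95 ± 1.77 on BAR (4.28, SE 1.12, adjusted p = 0.01) and 6.87 ± 6.06 on TDZ (3.91, SE 1.1, adjusted p = 0.018; 4.46 and 3.4e-05 without replicate 3). Phosphatase BSL3 fell in both copies on each cytokinin, DVH24_039167 from 198 ± 64.9 to 86.4 ± 12.7 CPM on BAR (-1.2, SE 0.25, adjusted p = 0.0031) and 83.0 ± 1.41 on TDZ (-1.26, SE 0.25, adjusted p = 0.0036; -1.25 and 0.0023 without replicate 3). Of 7 tested EXORDIUM proteins, cell wall proteins that brassinosteroid induces in Arabidopsis, 1 was higher and 1 lower on BAR and 0 were called on TDZ (1 higher and 1 lower without replicate 3).

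Among sterol-binding and transport proteins, 4 of 18 were higher and 7 lower on BAR, or 22.2% and 38.9% beside 17.2% and 12.7% of all genes. On TDZ 3 were higher and 3 lower, or 16.7% each beside 16.8% and 9.72%, and 5 and 5 without replicate 3, or 27.8% each beside 23.0% and 17.9%. Oxysterol-binding protein-related proteins (ORPs) carry sterols between membranes, and ORP4C, DVH24_018870, was near 0 in the controls of 4 weeks. It was at 0.382, 0.485 and 0.159 CPM in the 4 week controls, 27.8, 41.0 and 25.5 on BAR and 49.4, 23.1 and 0.644 on TDZ, and had been at 39.5 to 44.8 in the 48 hour controls. The log2 difference was 6.45 on BAR (SE 1.01, adjusted p = 0.00075) and 6.08 on TDZ (SE 1.0, adjusted p = 0.0022; 6.64 and 2.3e-08 without replicate 3), and both calls held with each library left out. ORP3A, DVH24_004426, rose on BAR alone, from 102, 105 and 97.7 to 294, 162 and 197 CPM (1.1, SE 0.22, adjusted p = 0.0027), and stayed at 120, 107 and 85.7 on TDZ. The 7 lower on BAR included the member with the highest mean over 18 libraries per length, probable steroid-binding protein 3, DVH24_012754, at 605 FPKM. It fell from 426, 283 and 289 to 93.9, 136 and 82.6 CPM on BAR (-1.68, SE 0.44, adjusted p = 0.011; 0.051 without BAR replicate 3), and TDZ read 93.3, 89.6 and 380. TDZ replicate 3 again lay among the controls, and without it the fall on TDZ was called (-1.87, SE 0.29, adjusted p = 0.0001).

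Of 10 tested enzymes that glucosylate or esterify sterols, 1 was higher and 2 lower on BAR, or 30.0% beside 29.9% of all genes. On TDZ 1 was higher and 0 lower with and without replicate 3, beside 26.6% and 40.9% of all genes called. Sterol glucosyltransferase UGT80A2 copy DVH24_028653, with the highest mean over 18 libraries of these enzymes at 21.4 FPKM, was at 49.1 ± 7.76 CPM in the controls, 49.8 ± 0.751 on BAR and 45.8 ± 4.38 on TDZ, with intervals of -0.31 to 0.35 and -0.43 to 0.23. Another copy, DVH24_010435, named after its values were seen, rose from 22.5, 23.8 and 25.1 to 60.0, 48.9 and 56.2 CPM on BAR (1.21, SE 0.21, adjusted p = 0.0011) and 47.8, 53.4 and 29.1 on TDZ (0.87, SE 0.2, adjusted p = 0.0073; 1.09 and 0.00014 without replicate 3), above every control in all 6 libraries.

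Among the remaining steroid-named enzymes, 3-oxo-Delta(4,5)-steroid 5-beta-reductase DVH24_007867, whose Arabidopsis relative takes part in leaf vein patterning, was lower on both cytokinins. It was at 110, 159 and 159 CPM in the controls, 28.8, 42.6 and 24.6 on BAR and 42.9, 39.0 and 79.0 on TDZ, below every control in all cytokinin libraries. The log2 difference was -2.15 on BAR (SE 0.29, adjusted p = 0.00039) and -1.41 on TDZ (SE 0.29, adjusted p = 0.0039; -1.8 and 7.6e-05 without replicate 3), and both calls held with each library left out.

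Between the cytokinins at 4 weeks, 6 members were higher on TDZ than on BAR and 1 lower, or 6.67%, beside 8.4% of all genes (4.42% and 3.98%). Without TDZ replicate 3 the counts were 15 and 5, or 18.9%, beside 15.4% (8.47% and 6.97%). The DWARF1 copy DVH24_040221 was higher on TDZ (log2 1.84, SE 0.41, adjusted p = 0.015; 2.26 and 4e-05 without replicate 3), and so were DWARF5 DVH24_000607 (1.26, SE 0.31, adjusted p = 0.022; 1.01 and 0.036 without replicate 3), DWARF7 DVH24_035270 (0.82, SE 0.24, adjusted p = 0.043; 0.98 and 0.011 without replicate 3) and ORP4B DVH24_002128 (2.41, SE 0.62, adjusted p = 0.028). ORP4B was at 3.57, 3.11 and 8.57 CPM on TDZ and 0.699, 1.28 and 0.86 on BAR, and without replicate 3, its highest TDZ library, it was not called (1.81, adjusted p = 0.065). ORP3A, DVH24_004426, was lower on TDZ (-1.06, SE 0.22, adjusted p = 0.011; -0.94 and 0.013 without replicate 3). The remaining calls were CYP724B1 (above) and a phospholipid sterol acyltransferase, DVH24_028749, named after its values were seen, at 3.39 ± 1.94 CPM on TDZ and 0.429 ± 0.118 on BAR (2.97, SE 0.65, adjusted p = 0.014; 3.37 and 0.0014 without replicate 3). All 7 calls were lost without BAR replicate 1, and each of the 7 in at least 1 fit. The count of 7 became 11 without control replicate 1, 0 without BAR replicate 1, 2 without BAR replicate 3, 4 without TDZ replicate 1 and 20 without TDZ replicate 3. Shares of all genes were not computed for these fits other than the last.

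At 48 hours 0 of the 105 members were called on either cytokinin or between them, beside 0.0% of all genes in each comparison. DESeq2 called 0 members as well, beside 0.395% of all genes for TDZ, 0.0192% for BAR and 0.58% for TDZ against BAR. At an unadjusted p under 0.05 in edgeR's test there were 5 of the 105 members for TDZ against control, beside 1439 of all 26053 genes. For BAR against control there were 3 members beside 693 genes, and for TDZ against BAR 10 members beside 1970 genes. The smallest p for either cytokinin belonged to CYP724B1, DVH24_028002, whose TDZ mean of 14.2 ± 4.76 CPM and BAR mean of 7.59 ± 6.01 lay above the 1.21 ± 0.0761 of the controls. In edgeR's fit the log2 difference was 3.55 on TDZ (SE 1.12, adjusted p = 0.65) and 2.65 on BAR (SE 1.08, adjusted p = 1.0), with no overlap with the controls in either. For TDZ it was called in a fit of the 48 hour libraries alone (adjusted p = 0.017, beside 0.288% of all genes) and in the fit without TDZ, 4 weeks, replicate 3 (adjusted p = 0.039, beside 0.0939%), in which that library touches this comparison through the shared spread and the filter. The DWARF4 copy DVH24_026474 read 10.6, 16.3 and 10.9 CPM on TDZ and 8.13, 9.44 and 6.71 in the controls, without overlap and without a call. At 48 hours 11 of the 105 members lay above every control on TDZ and 9 on BAR, beside 6.67% and 5.68% of all genes.

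The change of the cytokinin difference between 48 hours and 4 weeks was tested as an interaction. For TDZ 7 members had a higher and 1 a lower difference at 4 weeks, or 7.62%, beside 7.58% of all genes (5.44% and 2.14%), and without TDZ replicate 3 the counts were 19 and 9, or 26.4%, beside 26.7%. For BAR 8 were higher and 10 lower, or 17.1%, beside 11.4% (6.7% and 4.69%). Leaving out 1 library moved these counts widely. Only for the fit without TDZ replicate 3 of 4 weeks was the share of all genes computed, and for BAR it was 21.9%. Whether the members moved more than all genes is therefore not known. For TDZ the 8 calls became 0 or 1 without any 1 of the 48 hour controls, TDZ replicates 1 and 2 of either time or 4 week control replicates 2 and 3, 5 without TDZ replicate 3 of 48 hours, 18 without 4 week control replicate 1 and 28 without TDZ replicate 3 of 4 weeks. For BAR the 18 calls became 4 to 10 without any 1 of the 48 hour controls, BAR replicates 1 and 2 of 48 hours, 4 week control replicates 2 and 3 or the 3 BAR libraries of 4 weeks, 32 without 4 week control replicate 1 and 35 without TDZ replicate 3 of 4 weeks.

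In the controls themselves, members fell more often than they rose between 48 hours and 4 weeks. Of 105, 16 were higher and 33 lower at 4 weeks, or 46.7%, beside 36.7% of all genes (15.7% and 21.0%), with a median of -0.16 beside -0.04. Tissue markers moved in the same comparison: the summed phloem genes went from 180.0 to 212 CPM at 48 hours to 8.74 to 16.5 at 4 weeks, and the chlorophyll a-b binding proteins from 23000.0 to 29900.0 to 5670.0 to 16000.0. Of 14 tested homeobox genes named SHOOT MERISTEMLESS or knotted-1-like 2 were higher and 9 lower. The part of tissue makeup in the members' changes was not tested. Sterol biosynthesis had 1 of 24 higher and 13 lower, with a median of -0.73. DWARF1 was lower in both copies, DVH24_040221 from 41.6 ± 9.31 to 9.95 ± 0.638 CPM (-2.06, SE 0.41, adjusted p = 0.0019) and DVH24_007697 from 236 ± 18.1 to 135 ± 63.6 (-0.81, SE 0.27, adjusted p = 0.029), the second call being lost without control replicate 2 or 3 of either time (0.066 to 0.13). Methyltransferase 2 DVH24_013043 went from 367 ± 27.1 to 160 ± 48.7 CPM (-1.19, SE 0.42, adjusted p = 0.036), a call lost in 5 of the 18 fits that left out a library (0.059 to 0.12), and methylsterol monooxygenase 2-2 DVH24_038591 from 44.7 ± 6.4 to 18.3 ± 2.04 (-1.29, SE 0.21, adjusted p = 0.00072). BRASSINAZOLE-RESISTANT 1 DVH24_020255 fell from 40.7 ± 9.84 to 13.1 ± 5.71 CPM (-1.64, SE 0.41, adjusted p = 0.0066), while the homolog 4 copies DVH24_011381 and DVH24_002994 rose by 1.14 and 1.03 (SE 0.21 and 0.23, adjusted p = 0.0013 and 0.0031).

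Of 98 members with at least 1 CPM in the 48 hour controls, 10 stood under 10% of that level in the 4 week controls, or 10.2%, beside 8.41% of all such genes. They were methylsterol monooxygenase 1-2, CYP724B1, the DWARF4 copy DVH24_026474, ORP4C, the CYP734A1 copy DVH24_017833, the RING gene DVH24_008098, the BRI1-like 2 pair, BAT1 and ergosterol biosynthetic protein 28 (DVH24_034441, outside the rule for named genes). On BAR at 4 weeks 8 of the 10 stood at 36.5% to 85.8% of their 48 hour control level, methylsterol monooxygenase 1-2 at 18.4% and CYP724B1 at 1.53%. In TDZ replicates 1 and 2 they stood at 15.9% or more, and in TDZ replicate 3 at 13.8% or less except for DVH24_034441 at 51.0%. These levels on the cytokinins were not computed for all genes with so low a control. Whether they are particular to the members is therefore not known. This comparison and those of the cytokinins with control share the 4 week controls, so a low control level enters all of them.

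Markers of tissue differed between the 4 week groups as well. Summed over 11 sieve element genes of the phloem, the level was 8.74 to 16.5 CPM in the controls, 59.6 to 64.8 on BAR and 19.9, 187 and 427 on TDZ, the lowest being replicate 3; all 11 were called higher on TDZ and 7 on BAR. Cellulose synthases of xylem walls (14 genes) summed to 323, 1580 and 1690 CPM in the controls, 267 to 323 on BAR and 242 to 291 on TDZ, with control replicate 1 as the low control; of 8 tested, 6 were higher and 1 lower on TDZ and 5 and 1 on BAR, against the direction of the sum. Chlorophyll a-b binding proteins (30 genes) summed to 5670 to 16000 CPM in the controls, 4940 to 6370 on BAR and 2710 to 5620 on TDZ, and 8 B-type cyclins of dividing cells to 84.6 to 104, 51.9 to 64.9 and 98.2 to 112. The 20 homeobox genes named SHOOT MERISTEMLESS or knotted-1-like summed to 628 to 707 CPM in the controls and 845 to 924 on BAR. On TDZ they summed to 436, 687 and 758, replicate 3 being the lowest. Of these genes 12 had no count in the controls, 8 none on BAR and 4 none on TDZ, so the sum rests on part of the list. They were listed by name, and whether all are particular to the meristem was not tested. Of 14 tested, 10 were higher and 1 lower on TDZ (12 and 2 without replicate 3) and 2 and 2 on BAR. SHOOT MERISTEMLESS and the knotted-1-like genes DVH24_012608 and DVH24_039627 stood at 381, 279 and 368 times their BAR level on TDZ, with 3, 2 and 1 counts on BAR (intervals 130 to 1850.0, 77.0 to 2310.0 and 65.6 to 14600.0). The part of such differences in tissue makeup in the results above was not tested.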

How the data were processed

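Poly(A) RNA of 18 libraries was measured. Per the submitters' processing notes, the tools were CASAVA, HISAT2 2.0.5 and featureCounts 1.5.0-p3. Neither build nor strandedness of counting is given in the sources used here. The deposited table of raw counts was used as it stands. In the deposited FPKM table, values within a library are proportional to count over listed gene length; FPKM served only to compare levels between genes, per length. None of the identifiers was found in the reference table of apple genes (0 matches), and no sequences are shown.

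Members were found by protein name, present for 64.1% of genes. Members, role classes and pathway lists were chosen with earlier results of these data known; several name patterns were corrected after the count table was read. Counts were tested with edgeR 4.0.16 (R 4.3.3; quasi-likelihood, TMM scaling, filterByExpr with a minimum count of 10 and total of 15) in 1 fit of 18 libraries with 6 groups, for each cytokinin against control, TDZ against BAR, control over time and the change of each cytokinin difference over time (interaction). Benjamini-Hochberg adjustment ran over 26053 genes, and p-values measure only the spread between these libraries. Intervals are 95%; ratios of 1 to 3 counts carry an exact conditional interval for counting error only.

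Named genes, 52 in all, were chosen by role (brassinosteroid P450s, DET2, DWARF1, receptors, BAK1, BKI1 and BZR genes of at least 1 CPM), as up to 8 called members of largest fold change in each comparison, provided the group of higher mean reached 5 CPM (or the 4 of smallest p where none was called), and as the member of highest FPKM in each class; others are marked in the text. Same-numbered libraries deviated from their group means with correlations of -0.332 to 0.332. Differently numbered libraries were not compared, so this check cannot decide whether the numbers pair the samples. Simulated data for TDZ against control at 4 weeks held 26053 genes, of which 200 were changed. The spread of each gene was that of the fit of 18 libraries. Recovery was 2% for genes changed by a factor of 1.5, 0% for 2, 56% for 4 and 70% for 8. Unchanged genes gave 8 calls. In the data 26.6% of genes were called in this comparison, so these recoveries do not carry over to it. The common dispersion was 0.185, and 0.124 without TDZ, 4 weeks, replicate 3. Alternatives were DESeq2 1.42.0, limma-voom (limma 3.58.1), RLE scaling, no filter, libraries of 1 time, the 4 libraries named with a final b added to replicate 1 of their group, the replicate number as a block and each library left out.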

Additional observations from a re-analysis of the deposited data

Results flagged for a closer look

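For 15 named members, the difference between a cytokinin and the control at 4 weeks differed from that at 48 hours, by the interaction term in edgeR's quasi-likelihood test (adjusted p under 0.05). Over all members 7 interactions were higher and 1 lower for TDZ (7.62% of members beside 7.58% of all genes), and 8 higher and 10 lower for BAR (17.1% beside 11.4%). Values are log2 differences of differences, 4 weeks minus 48 hours, and the comparisons share their controls.

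For TDZ the interaction was 9.15 for methylsterol monooxygenase 1-2 (DVH24_016160, adjusted p = 0.03), 6.97 for the DWARF4 copy DVH24_026474 (0.031), 6.18 for ORP4C (DVH24_018870, 0.023), 5.63 for BAT1 (DVH24_020422, 0.038), 3.9 for BRI1-like 2 (DVH24_007653, 0.03) and -1.21 for BES1/BZR1 homolog 4 (DVH24_011381, 0.03). The largest of these is a fitted value against controls with 0 counts and is no bound. The DWARF4 copy held 3 counts in the 4 week controls, so its value is imprecise. All these values include TDZ replicate 3 of 4 weeks, which stood apart from its group, and values without it are not given here.

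For BAR it was 6.78 for ORP4C (adjusted p = 0.0082), 6.52 for the DWARF4 copy (0.028), 6.17 for CYP734A1 (DVH24_017833, 0.022), 4.35 for the RING gene DVH24_022347 (0.03), 1.73 for BAK1 (DVH24_016473, 0.026) and 1.26 for ORP3A (DVH24_004426, 0.021). It was -2.23 for the steroid 5-beta-reductase (DVH24_007867, 0.008), -2.06 for BRI1-like 1 (DVH24_041808, 0.046), -1.48 for BES1/BZR1 homolog 4 (DVH24_011381, 0.011), -1.38 for DWARF5 (DVH24_000607, 0.048), -1.17 for DWARF7 (DVH24_035270, 0.036) and -1.09 for methylsterol monooxygenase 2-2 (DVH24_032957, 0.048). With each library left out, 4 of the 18 member calls for BAR held in all 18 fits and 0 of the 8 for TDZ.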

How the results depend on the processing

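The 107 results of named members followed here are calls and, for each comparison of 48 hours, where none was called, the 4 differences of smallest p. Of the counts of members called and these 107 results, 0 changed direction under an alternative that was run. Other differences that were not called, pathway lists and markers were not rerun under most of them. At 48 hours the fit of the same-time libraries called 1 member for TDZ against control. At 4 weeks TDZ against control had 18 calls with limma-voom and 10 with same-time libraries, against 32. BAR against control had 29 with same-time libraries, against 47. TDZ against BAR had 13 with DESeq2 and 0 with same-time libraries, against 7. Of all genes, the same-time libraries called 6.67% for TDZ, 18.5% for BAR and 0.63% for TDZ against BAR. DESeq2 called 14.3% of all genes for TDZ against BAR, 16.3% for the TDZ interaction and 19.4% for the BAR interaction. Shares of all genes were not computed for limma-voom, the b libraries summed or the replicate block. With 1 library left out they were computed only without TDZ, 4 weeks, replicate 3. The interaction with time had, for TDZ, 14 calls with DESeq2, 0 with limma-voom, 15 with the b libraries summed and 1 with the replicate block, against 8, and for BAR 30 with DESeq2 and 11 with limma-voom, against 18. Leaving out 1 library gave 15 to 51 calls for TDZ and 30 to 55 for BAR against control at 4 weeks, 0 to 20 for TDZ against BAR, 35 to 57 for the controls over time, 0 to 28 and 4 to 35 for the TDZ and BAR interactions, and 0 to 1 for TDZ against control at 48 hours. Of these 107 results, 105 kept their side of the threshold with RLE scaling, 104 of 104 with DESeq2 and 100 without a filter. With the b libraries summed 97 did, with the replicate block 94 and with limma-voom 67. With libraries of the same time 35 of 65 kept their side and 29 calls were lost. The 48 hour differences kept their side by staying uncalled and are included in these numbers, so they raise the share kept. Low counts in the 4 week controls limit the precision of the folds of CYP90B1, CYP724B1, CYP734A1 and methylsterol monooxygenase 1-2.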
